A study of Homo sapiens with 6 samples.

Results

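DNA replication and S phase genes, a set of 44 genes listed by symbol, were described in HEC-1B cells, an established human endometrioid carcinoma line. The set holds the genes of replication licensing, the replication fork, nucleotide supply and the G1/S transition. All 44 symbols were found among the 23284 genes of each table, and all 44 were among the 12135 genes kept by a filter on low values (at least 1 FPKM, fragments mapped to a gene scaled by transcript length and library depth, in at least 2 libraries). Expression was measured by RNA sequencing in 6 libraries that form 3 groups of 2. The high-potential accelerated group is HEC-1B labelled with high ALDH potential and with ALDH-high acceleration (its descriptions also carry the code a2-PAM, which no label explains), the parental accelerated group is HEC-1B with ALDH-high acceleration but without the high-potential label, and the high-to-low group is HEC-1B without the high-potential label and labelled ALDH-high to low. ALDH is aldehyde dehydrogenase, whose activity marks stem-like cells in several carcinomas. The comparison of interest to the series is between cells that do and do not show a faster move out of the ALDH1A1-low and into the ALDH1A1-high state. All groups come from 1 cell line, no high-potential library is labelled high to low, and it is not stated that replicates are cultures of their own. The p-values therefore speak of spread between libraries that may be only technical.

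Before S phase, the origin recognition complex, CDC6 and CDT1 load the ring-shaped MCM2 to MCM7 helicase onto DNA. Cyclin E with its kinase then drives cells into S phase, and CDC45 and the GINS complex join the ring to make the active helicase. Polymerases alpha, delta and epsilon copy the strands, held in place by the sliding clamp PCNA, while ribonucleotide reductase, thymidylate synthase and thymidine kinase supply nucleotides. Most of these genes are transcribed by E2F factors late in G1, and their mRNA is used as a mark of proliferating cells. In a bulk sample, fewer cells in S phase and less of an mRNA per cell cannot be told apart.

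The promoters of the set are shown first, since regulation by E2F is the best known feature that its genes share. RefSeq promoter windows (GRCh38.p14, 250 bases before to 50 after each annotated start) were matched by symbol for 38 of the 44 members, with 49 windows, the others being MCM4, MCM5, GINS4, RPA2, RPA3 and CCNE2. The FPKM values were made on hg19, so these windows serve for sequence only. Windows were searched on both strands for 4 E2F words (TTTCCCGC, TTTGGCGC, TTTCGCGC and TTTGCCGC) and for CCAAT, the NF-Y word. At least 1 E2F word was in 20 of the 49 windows (40.8%), against 3.31% of all 35116 windows and 4.98% of the 12524 windows of genes kept by the filter. CCAAT was in 59.2% of the members' windows, against 34.6% of all windows and 35.2% of those of kept genes. TTTGAA is the core of the CHR element of genes of the later cell cycle. It was in 2.04% of the members' windows, against 15.2% of all windows and 10.4% of those of kept genes. Members' windows had a median GC content of 67.3%, against 58.7% over all windows and 65% over those of kept genes. A match is a run of letters and not a bound site. The stretches below belong to members with large differences between groups (MCM2, GINS2, CDC45, TK1) and to MCM6, whose difference had the opposite sign. Each is 140 bases, 5′ to 3′ on the gene's strand, with E2F words and CCAAT (or its complement ATTGG) in capitals. The MCM6 stretch runs from 160 to 20 bases before the start, and the others from 120 bases before to 20 after it. They lie at chr3:127598291-127598430 (plus strand) for MCM2, chr2:135876464-135876603 (minus strand) for MCM6, chr16:85688935-85689074 (minus strand) for GINS2, chr22:19479800-19479939 (plus strand) for CDC45 and chr17:78187033-78187172 (minus strand) for TK1.
MCM2: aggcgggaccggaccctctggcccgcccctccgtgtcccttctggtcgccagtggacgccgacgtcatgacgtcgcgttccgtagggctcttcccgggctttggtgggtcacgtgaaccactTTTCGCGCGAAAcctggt
MCM6: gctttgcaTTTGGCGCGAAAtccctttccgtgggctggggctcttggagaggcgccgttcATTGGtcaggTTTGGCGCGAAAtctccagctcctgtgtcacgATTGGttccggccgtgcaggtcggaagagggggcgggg
GINS2: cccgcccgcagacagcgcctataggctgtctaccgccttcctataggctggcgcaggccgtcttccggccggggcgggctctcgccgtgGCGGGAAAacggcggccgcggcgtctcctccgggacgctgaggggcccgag
CDC45: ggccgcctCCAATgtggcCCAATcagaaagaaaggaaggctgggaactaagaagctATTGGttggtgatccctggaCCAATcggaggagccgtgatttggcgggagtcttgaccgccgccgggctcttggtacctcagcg
TK1: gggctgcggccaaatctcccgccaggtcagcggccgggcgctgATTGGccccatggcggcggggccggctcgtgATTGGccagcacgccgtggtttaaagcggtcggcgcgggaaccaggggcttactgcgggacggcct

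In MCM2 a pair of E2F words on opposite strands overlapped at the start site, and MCM6 held such a pair at 2 places. CDC45 had 4 CCAAT words in this stretch and none of the 4 E2F words in any of its 3 windows. Its stretch does hold tttggcgg, which differs from the word TTTGGCGC in the last base and was not searched for. TK1 had 2 CCAAT words and none of the 4 E2F words. Between high-potential accelerated and high-to-low libraries the median log2 difference was -0.38 over the 19 members with a word and -0.40 over the 19 without, and 16 of 19 were lower in each case. Between high-potential and parental accelerated libraries the medians were -0.19 with a word and -0.22 without, and between parental accelerated and high-to-low libraries -0.10 and -0.17. Other members counted as without a word, such as MCM10, also hold tttggcgg. To be without a word thus means to hold none of these 4 words, and not to lack an E2F site. The contrast between members with and without a word was not tested.

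ALDH1A1, the gene that names the low and high states, did not follow the labels in every library. Its level was 353 and 304 FPKM (high-potential accelerated), 26.7 and 317 FPKM (parental accelerated) and 28.4 and 9.44 FPKM (high-to-low). The library labelled parental accelerated replicate 1 thus lay inside the high-to-low range. The medians of the comparisons that use it are also given without it, and leading members only for the pairwise comparisons. Relative depth, recovered from the steps between low values, was 0.807 to 1.07 of that of high-potential accelerated replicate 1. Keratins KRT8, KRT18 and KRT19 and the endometrial factors PAX8 and HOXA10 were above 1 FPKM in all libraries, whereas CDH1 (E-cadherin) stayed under 1 FPKM and ESR1, PGR and EMX2 are listed at 0. All 6 fibroblast and all 5 endothelial markers stayed below 1 FPKM in every library, as did the leukocyte markers PTPRC and CD14, and CD3E is listed at 0.

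Across the whole set, replicates of a group lay far apart, with replicate 2 above replicate 1 in each group. For each gene the mean of log2(FPKM + 1) over the 6 libraries was subtracted, and the median over the 44 members was taken. This median was -0.29 and 0.02 in the high-potential accelerated group, -0.22 and 0.18 in parental accelerated cells, and -0.02 and 0.40 in high-to-low cells. The highest and lowest were thus high-to-low replicate 2 and high-potential accelerated replicate 1, and the groups overlapped. Within each group replicate 2 was above replicate 1 for most members, 35 of 44 in high-potential accelerated, 39 in parental accelerated and 39 in high-to-low cells, against 49.5, 49.9 and 49.7% of all kept genes. ALDH1A1 did not order the libraries in the same way: the 3 libraries high in ALDH1A1 (both high-potential accelerated ones and parental accelerated replicate 2) spanned medians of -0.29 to 0.18.

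**Figure D1:**
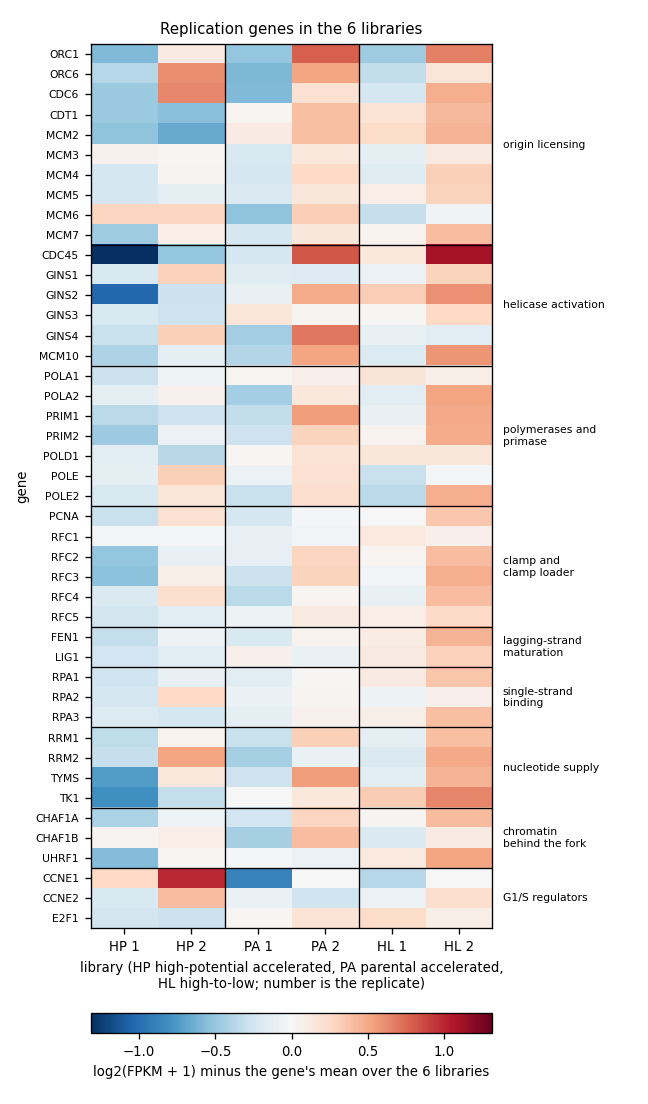
Heat map of the 44 replication genes (rows, in blocks by function) in the 6 libraries (columns), as log2(FPKM + 1) minus each gene's mean over the libraries. Replicate 2 is redder than replicate 1 in most rows of each group, and CDC45 and GINS2 are lowest in the high-potential accelerated libraries.

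The same order of libraries held in mitosis genes, such as those of the spindle and of cyclin B. Their median over 30 genes was -0.45 and 0.07 in the high-potential accelerated group, -0.29 and 0.48 in parental accelerated cells, and -0.16 and 0.50 in high-to-low cells. Replicate 2 was the higher for 28, 30 and 30 of these 30 genes in the high-potential accelerated, parental accelerated and high-to-low groups. Housekeeping genes lay at 0.22 in high-to-low replicate 2, and between -0.06 and 0.02 in the other libraries. The part of this spread between libraries in the group differences was not tested.

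**Figure D2:**
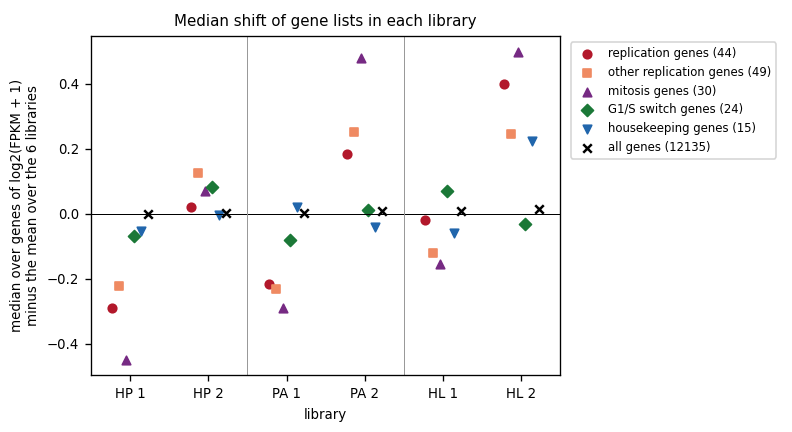
Median over each gene list of log2(FPKM + 1) minus the mean over the 6 libraries (vertical axis) in each library (horizontal axis; HP high-potential accelerated, PA parental accelerated, HL high-to-low), with list sizes in the legend. Replication and mitosis genes are lowest in HP 1 and highest in HL 2, while the median of all genes stays near 0.

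Replication genes were mostly lower in high-potential accelerated than in high-to-low libraries, but no single member passed the threshold in the fit with no replicate term. Of 44 members, 35 were lower and 9 higher, where 50.8% of all 12135 genes tested were lower. The median log2 difference, on log2(FPKM + 1), was -0.36, against -0.01 over all genes. By limma's moderated test 0 of 44 had an adjusted p under 0.05, where 0.799% of all genes did. At an unadjusted p under 0.05, 5 members were lower and 0 higher, against 10.8% of all genes lower and 7.57% higher (18.4% in either direction), so that count is near the background in this fit. Both groups' libraries were fully separated for 21 members that were lower and 2 that were higher, against 26.4% and 24.7% of all genes. Without high-potential accelerated replicate 1 the median was -0.14, and without high-to-low replicate 2 it was -0.17 with 2 members at an unadjusted p under 0.05. With no filter on low values the 5 members became 10, and with a term for the description code 13. The share of all genes at that p was not computed under these settings, so 10 and 13 have no background beside them. Both high-to-low libraries have a code that starts with 17. In each accelerated group replicate 1 has 17 and replicate 2 has 18. The code thus varies in part with the groups, and its term rests on the accelerated libraries alone. High potential and acceleration are both present in one group and both missing from the other, so their parts cannot be told apart in this comparison.

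Between high-potential and parental accelerated libraries, which both carry the accelerated label, the median difference lay nearer to 0. Of 44 members, 28 were lower and 16 higher, where 49.6% of all genes were lower, and the median was -0.15, against 0.00 over all genes. No member passed (0 of 44, limma; 0.494% of all genes), while 6 reached an unadjusted p under 0.05 (14.3% of all genes), 5 of them lower (8.63%) and 1 higher (5.69%), again near the background in this fit. The groups did not overlap for 12 lower and 2 higher members (22.3 and 21.1% of all genes). The median was 0.02 without high-potential accelerated replicate 1, 0.04 without parental accelerated replicate 2, -0.32 without parental accelerated replicate 1 and -0.28 without high-potential accelerated replicate 2. Without parental accelerated replicate 1, 5 members had an unadjusted p under 0.05, and the log2 differences were -1.73 for CDC45, -1.14 for GINS2, -0.99 for MCM2, -0.91 for CDT1, -0.70 for TK1 and 0.62 for CCNE1. The 6 members with a low unadjusted p became 3 without high-potential accelerated replicate 1 and 3 without parental accelerated replicate 2. Set side by side by the leading digits of the code in the descriptions, the replicate 1 libraries (17) gave a median of -0.10 and the replicate 2 libraries (18) one of -0.22, each with 32 of 44 members lower.

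Parental accelerated and high-to-low libraries, which share the absence of the high-potential label, differed by little in most members, and none passed. Of the 44 members, 38 were lower and 6 higher, where 52.9% of all genes were lower, with a median of -0.16 (-0.02 over all genes), and every limma adjusted p was 1. At an unadjusted p under 0.05 there were 0 members, against 0.972% of all genes (0.544% lower and 0.429% higher), and 0.0165% of all genes passed. The groups did not overlap for 11 lower and 0 higher members (12.7 and 11.4% of all genes). The housekeeping list was also mostly lower here, with 12 of 15 genes lower and 3 higher (median -0.21). Leaving out parental accelerated replicate 1, the library low in ALDH1A1, gave a median of 0.04 with 18 of 44 lower, and leaving out high-to-low replicate 2 gave -0.01. Without the first of these libraries the log2 differences were -0.41 for UHRF1, -0.35 for TK1, -0.24 for RRM2 and -0.23 for FEN1, while those of MCM2 (0.05), CDT1 (0.09) and GINS2 (0.02) were above 0. The median became -0.38 when parental accelerated replicate 2 was dropped and -0.39 when high-to-low replicate 1 was dropped. With small RNA genes left out and the libraries rescaled, the median was -0.07, and over all genes it was then 0.06. With a term for the description code the median was -0.37 (-0.01 over all genes). Both high-to-low libraries have a code that starts with 17, so that term is not free of the group difference.

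When both accelerated groups were averaged and set against high-to-low, 37 members were lower and 7 higher, where 52.9% of all genes were lower (median -0.23, -0.02 over all genes). In the housekeeping list 12 of 15 were lower and 3 higher (median -0.17). By limma 0 of 44 passed (0.0659% of all genes), and 4 lower members (TK1, MCM2, GINS2 and CDT1) had an unadjusted p under 0.05, against 5.42% of all genes lower, 3.82% higher and 9.25% in either direction. With a term for the description code, which varies in part with the groups, the median was -0.43. The members with a low unadjusted p were 12 with that term, and no share of all genes was computed for it. Without parental accelerated replicate 1, the library low in ALDH1A1, the median was -0.17 with 32 of 44 members lower. Leaving out high-to-low replicate 2 gave a median of -0.08 and leaving out high-to-low replicate 1 one of -0.49, and the members with a low unadjusted p were then 0 and 3. They were 2 without high-potential accelerated replicate 1 and 2 without parental accelerated replicate 1. All 4 accelerated libraries were below both high-to-low libraries for 8 members, TK1, UHRF1, FEN1, LIG1, RPA1, RPA3, RFC1 and POLA1, against 6.73% of all genes, and 0 members were above both (6.3% of all genes). The comparisons share libraries, so their values are given side by side and not counted as separate evidence.

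**Figure D3:**
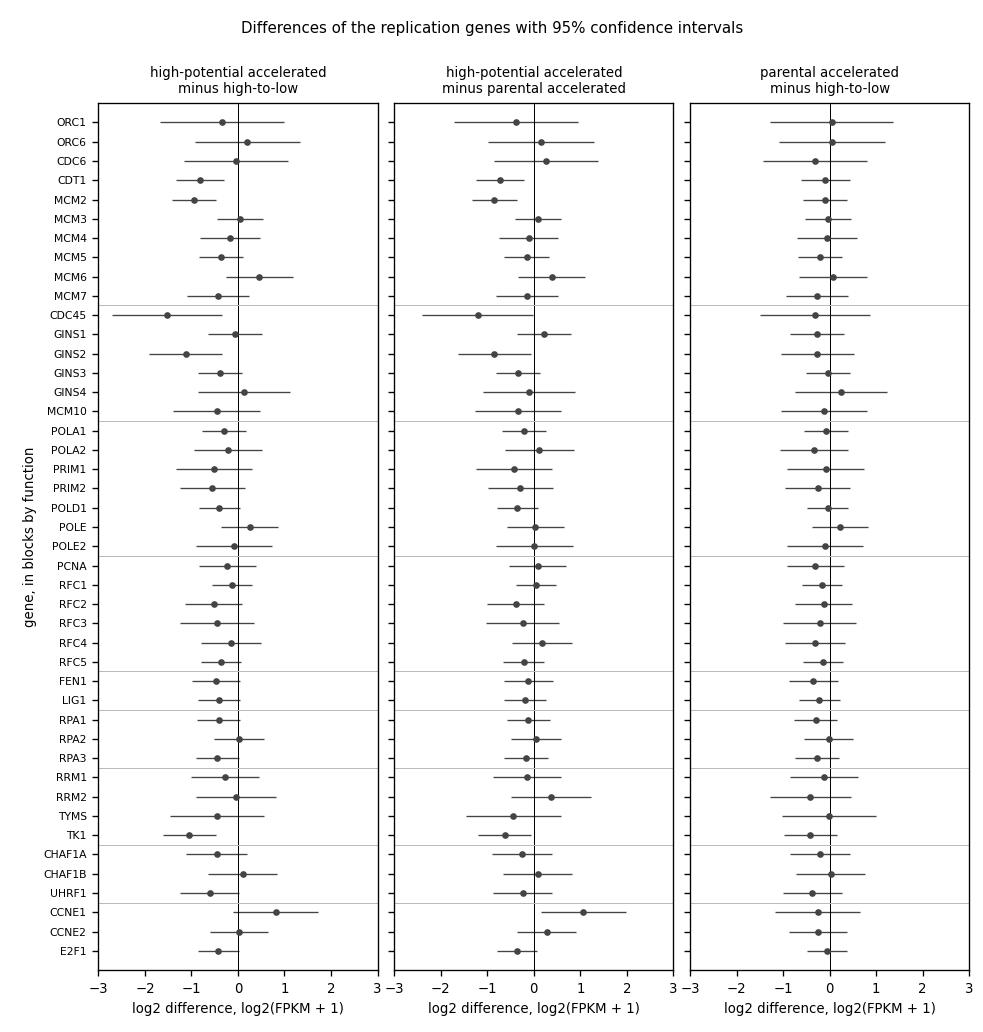
Log2 difference (horizontal axis, on log2(FPKM + 1)) with its 95% confidence interval for each of the 44 replication genes (vertical axis) in 3 comparisons. CDC45, GINS2, MCM2, CDT1 and TK1 have intervals below 0 in the left and middle panels, and every interval of the right panel crosses 0.

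Among the licensing genes, MCM2 and CDT1 were lower in the high-potential accelerated libraries than in all others, while CDC6, ORC1 and ORC6 varied more between replicates than between groups. MCM2, a subunit of the helicase ring, was 75.4 and 68.9 FPKM in high-potential accelerated cells, 118 and 144 FPKM in parental accelerated cells and 129 and 150.0 FPKM in high-to-low cells. Both high-potential accelerated libraries lay below all others, with a mean of 72.1 ± 4.56 FPKM in high-potential accelerated and 139.7 ± 14.6 FPKM in high-to-low libraries (SD, n = 2). MCM2 differed on the log2 scale by -0.94 (SE 0.197, limma adjusted p = 0.0882) against high-to-low, -0.85 (SE 0.197, limma adjusted p = 0.139) against parental accelerated libraries and -0.09 between parental accelerated and high-to-low libraries. CDT1, which brings the ring to the origin, was 9.91 and 9.45 FPKM (high-potential accelerated), 14.6 and 19.1 FPKM (parental accelerated) and 16.3 and 19.5 FPKM (high-to-low). It too was lowest in both high-potential accelerated libraries, by -0.82 (SE 0.216, limma adjusted p = 0.131) against high-to-low and -0.73 (SE 0.216, limma adjusted p = 0.207) against parental accelerated libraries (named after its values were seen).

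CDC6, the ATPase that loads the ring with CDT1, was 46.7 and 103 FPKM in the high-potential accelerated group, 43.9 and 75.8 FPKM in the parental accelerated group and 55.9 and 92.1 FPKM in the high-to-low group. Replicate 2 was the higher in each group, and the groups overlapped; the difference between parental accelerated and high-to-low libraries was -0.31 (SE 0.464). ORC6 and ORC1, subunits of the origin recognition complex, ranged over 45.7 to 106 FPKM and 9.02 to 24.9 FPKM, with replicate 2 above replicate 1 in every group. ORC1 was 9.02 and 15.2 FPKM in high-potential accelerated, 9.58 and 24.9 FPKM in parental accelerated and 9.89 and 22.7 FPKM in high-to-low libraries, so its replicates differed more than its groups.

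The 6 MCM subunits, which form 1 ring in equal numbers, had unlike values across the groups. MCM6 was 79.9 and 79.9 FPKM in high-potential accelerated cells, 45.2 and 82.2 FPKM in parental accelerated cells and 52.9 and 63.6 FPKM in high-to-low cells, and both high-potential accelerated libraries were above both high-to-low libraries (log2 difference 0.46, SE 0.299, limma adjusted p = 0.476). MCM3 (0.05), MCM4 (-0.17), MCM5 (-0.36) and MCM7 (-0.42) had smaller log2 differences than MCM2 in this comparison, with confidence intervals that cross 0. As a share of the summed FPKM of MCM2 to MCM7, a value per transcript length that no scaling of whole libraries can alter, MCM2 made up 13 and 10.3% (high-potential accelerated), 19.7 and 18.1% (parental accelerated) and 19.1 and 17.8% (high-to-low). The MCM6 share was 13.8 and 12% (high-potential accelerated), 7.56 and 10.3% (parental accelerated) and 7.81 and 7.55% (high-to-low). The ratio of MCM2 to MCM6 was 0.943 and 0.862 (high-potential accelerated), 2.61 and 1.75 (parental accelerated) and 2.44 and 2.36 (high-to-low), and the high-potential accelerated libraries did not overlap with either other group. These shares were chosen after the values were seen and carry no test. The summed FPKM of the 6 genes was 580.4 and 667 in high-potential accelerated, 598 and 797 in parental accelerated and 678 and 842 in high-to-low libraries, with overlap between the accelerated groups and between parental accelerated and high-to-low libraries. MCM7 holds the genes of 3 microRNAs in its introns, of which MIR25 is listed at 896.0 FPKM in high-potential accelerated replicate 2 and 773.3 FPKM in high-to-low replicate 2 and at 0 in the others.

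**Figure D4:**
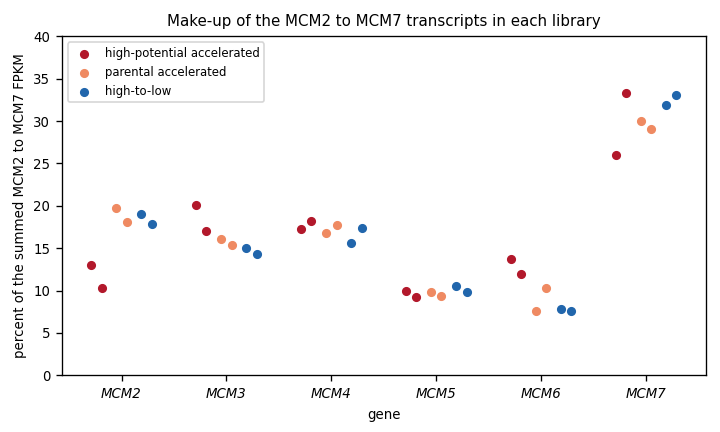
Share of each MCM gene in the summed FPKM of MCM2 to MCM7 (vertical axis, percent), with 1 point per library, for the 3 groups in the order high-potential accelerated, parental accelerated, high-to-low. The MCM2 share is 13 and 10.3% in the high-potential accelerated libraries and 17.8 to 19.7% in the other 4, and the MCM6 share is highest in the high-potential accelerated libraries.

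Of the genes that turn the loaded ring into a helicase, CDC45 and GINS2 were lowest in the high-potential accelerated libraries. CDC45, the helicase cofactor, was 11.9 and 21.7 FPKM (high-potential accelerated), 26.5 and 55.9 FPKM (parental accelerated) and 34.4 and 68 FPKM (high-to-low). The high-potential accelerated libraries were below all others, and replicate 2 was well above replicate 1 in each group. Its log2 difference, the greatest of the set, was -1.53 (SE 0.49, limma adjusted p = 0.183) against high-to-low, with a 95% interval of -2.72 to -0.34, and -1.21 (SE 0.49, limma adjusted p = 0.34) against parental accelerated libraries. Between parental accelerated and high-to-low libraries it was -0.32, and 0.20 without parental accelerated replicate 1. GINS2, 1 of the 4 GINS subunits, was 23.5 and 40.3 FPKM in the high-potential accelerated group, 45.8 and 69.3 FPKM in the parental accelerated group and 61.7 and 75.2 FPKM in the high-to-low group. Its log2 difference was -1.12 (SE 0.325, limma adjusted p = 0.157) against high-to-low and -0.85 (SE 0.325, limma adjusted p = 0.312) against parental accelerated libraries (named after its values were seen).

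The other GINS subunits had differences nearer to 0, and the contrast between subunits was not tested. GINS1 had log2 differences of -0.06 against high-to-low and 0.22 against parental accelerated libraries, and GINS4 had 0.13 and -0.11. GINS3, at 10.8 to 16.1 FPKM, was lower in both high-potential accelerated libraries than in all others, by -0.38 (SE 0.195, limma adjusted p = 0.368) against high-to-low. MCM10, which helps to activate the helicase, was 17 and 20.8 FPKM in high-potential accelerated cells, 17.2 and 33.1 FPKM in parental accelerated cells and 19.9 and 34.5 FPKM in high-to-low cells, with replicate 2 the higher in each group and differences smaller than their standard errors times 2.

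Polymerase and primase genes were lower in 6 of 7 cases against high-to-low, and none reached an unadjusted p under 0.05. PRIM2, the large primase subunit, was 14.7 and 19.7 FPKM (high-potential accelerated), 17.1 and 25.9 FPKM (parental accelerated) and 21.6 and 29.7 FPKM (high-to-low). Its libraries did not overlap between high-potential accelerated and high-to-low cells (log2 difference -0.55, SE 0.288, limma adjusted p = 0.376). PRIM1, the catalytic primase subunit, was 58.8 and 62.3 FPKM in the high-potential accelerated group, 60.4 and 111 FPKM in the parental accelerated group and 70.6 and 107 FPKM in the high-to-low group, so that the second libraries of the parental accelerated and high-to-low groups stood apart from the other 4 (log2 difference -0.43, SE 0.34, limma adjusted p = 0.641 between the accelerated groups). POLA2, a subunit of polymerase alpha, was 34.2 and 38.7 FPKM in high-potential accelerated cells, 27 and 41.3 FPKM in parental accelerated cells and 33.6 and 53.8 FPKM in high-to-low cells, with a log2 difference of -0.34 (SE 0.304) between parental accelerated and high-to-low libraries. POLD1, the catalytic subunit of polymerase delta, was lower in both high-potential accelerated libraries (29.1 and 24.7 FPKM) than in both parental accelerated (32.7 and 36.7 FPKM) and both high-to-low libraries (35.9 and 35.6 FPKM), with limma adjusted p = 0.314 against high-to-low. POLE, the catalytic subunit of polymerase epsilon, ranged over 5.81 to 9.36 FPKM and was the exception in sign, with a log2 difference of 0.25. Those of POLA1 and POLE2, further subunits of polymerases alpha and epsilon, were -0.29 and -0.08.

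The clamp PCNA was among the most abundant members, at 247 and 347 FPKM (high-potential accelerated), 257 and 296 FPKM (parental accelerated) and 302 and 388 FPKM (high-to-low). Against high-to-low libraries its log2 difference was -0.23 (95% interval -0.84 to 0.39) in high-potential accelerated libraries, and these groups overlapped. In parental accelerated libraries it was -0.31 (95% interval -0.93 to 0.31), and both of these libraries were below both high-to-low libraries. Of the clamp loader subunits RFC1 to RFC5, RFC2 was 63.8 and 85.7 FPKM in the high-potential accelerated group, 84.6 and 111 FPKM in the parental accelerated group and 93.1 and 122 FPKM in the high-to-low group, with no overlap between high-potential accelerated and high-to-low libraries (log2 difference -0.52, SE 0.255, limma adjusted p = 0.344; -0.39 against parental accelerated). RFC4 was 102 and 135 FPKM in high-potential accelerated cells, 91.2 and 119 FPKM in parental accelerated cells and 109 and 155 FPKM in high-to-low cells, and its groups overlapped. RFC1, which is the large subunit, varied least, over 15.1 to 18.1 FPKM, and RFC3 (-0.45) and RFC5 (-0.36) were lower against high-to-low without passing.

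On the lagging strand, the nuclease FEN1 and the ligase LIG1 trim and join Okazaki fragments. FEN1 was 62.2 and 73.9 FPKM (high-potential accelerated), 67.5 and 80.1 FPKM (parental accelerated) and 82.9 and 107 FPKM (high-to-low), and all 4 accelerated libraries were below both high-to-low libraries (log2 difference -0.47, SE 0.215, limma adjusted p = 0.319 for high-potential accelerated, -0.35 for parental accelerated). LIG1 showed the same order of groups at 21.4 and 23.1 FPKM in high-potential accelerated, 26.9 and 24.1 FPKM in parental accelerated and 27.9 and 31.9 FPKM in high-to-low libraries, with -0.19 (SE 0.184) between the accelerated groups.

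Replication protein A coats single-stranded DNA as a trimer of RPA1, RPA2 and RPA3. RPA3 was 65.6 and 63.5 FPKM in the high-potential accelerated group, 67.9 and 77.6 FPKM in the parental accelerated group and 78.7 and 98.4 FPKM in the high-to-low group, and RPA1 was 56 and 63 FPKM in high-potential accelerated cells, 60.8 and 68.2 FPKM in parental accelerated cells and 72.7 and 87.1 FPKM in high-to-low cells. In both, all accelerated libraries were below both high-to-low libraries, with log2 differences for high-potential accelerated libraries of -0.44 (SE 0.194, limma adjusted p = 0.299) for RPA3 and -0.42 (SE 0.19, limma adjusted p = 0.315) for RPA1. Parental accelerated libraries differed by -0.27 and -0.30 in these genes. RPA2 had 0.02 (95% interval -0.51 to 0.55) and -0.03.

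In nucleotide supply, thymidine kinase TK1, which recycles thymidine, had the greatest difference of the 4 members in the comparisons of high-potential accelerated cells. TK1 was 83.1 and 117 FPKM (high-potential accelerated), 146 and 161 FPKM (parental accelerated) and 184 and 228 FPKM (high-to-low). The 3 groups did not overlap, with high-potential accelerated libraries lowest and high-to-low libraries highest. TK1 differed on the log2 scale by -1.04 (SE 0.237, limma adjusted p = 0.104) for high-potential accelerated against high-to-low, -0.63 (SE 0.237, limma adjusted p = 0.305) for high-potential against parental accelerated and -0.41 (SE 0.237, limma adjusted p = 1) for parental accelerated against high-to-low libraries. RRM2, the small subunit of ribonucleotide reductase, was 46.4 and 83 FPKM in the high-potential accelerated group, 42.2 and 53.8 FPKM in the parental accelerated group and 50.1 and 81.3 FPKM in the high-to-low group, with a difference of -0.04 (95% interval -0.91 to 0.82) for high-potential accelerated and -0.41 for parental accelerated against high-to-low libraries. RRM1, the large subunit, had -0.28 and -0.13 in these comparisons. Thymidylate synthase TYMS ranged over 174 to 426 FPKM, with replicate 2 well above replicate 1 in each group; its gene overlaps ENOSF1 on the opposite strand, and the libraries do not record strand.

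Among chromatin factors of the fork, UHRF1, which helps to copy DNA methylation, was 13.9 and 21.3 FPKM in high-potential accelerated cells, 20.9 and 19.98 FPKM in parental accelerated cells and 23.3 and 30.8 FPKM in high-to-low cells. All accelerated libraries were below both high-to-low libraries (log2 difference -0.61, SE 0.262, limma adjusted p = 0.289 for high-potential accelerated, -0.37 for parental accelerated). CHAF1A, the large subunit of the histone chaperone CAF-1, had -0.46 against high-to-low and -0.25 (SE 0.27) against parental accelerated libraries, at 18.7 and 24.3 FPKM in high-potential accelerated, 21.1 and 31 FPKM in parental accelerated and 25.9 and 34 FPKM in high-to-low libraries. CHAF1B, its partner, had 0.10 and 0.08.

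The G1/S regulators held the 1 member with a large difference in the other direction. CCNE1, which encodes cyclin E1, was 28.1 and 47 FPKM (high-potential accelerated), 12.1 and 23.3 FPKM (parental accelerated) and 17.7 and 23.3 FPKM (high-to-low). Both high-potential accelerated libraries were above all others, with log2 differences of 1.07 (SE 0.379, limma adjusted p = 0.281) against parental accelerated and 0.81 (SE 0.379, limma adjusted p = 0.324) against high-to-low libraries. Between parental accelerated and high-to-low libraries it was -0.25, and 0.19 without parental accelerated replicate 1. CCNE2, the second cyclin E gene, ranged over 18.9 to 30.6 FPKM with overlap between high-potential accelerated and the other groups (0.27 and 0.02). E2F1, the activator of the set, was lower in both high-potential accelerated libraries, at 23.4 and 22.7 FPKM, than in both parental accelerated (28.3 and 31.8 FPKM) and both high-to-low libraries (33.1 and 29.3 FPKM), with limma adjusted p = 0.425 and 0.287.

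**Figure D5:**
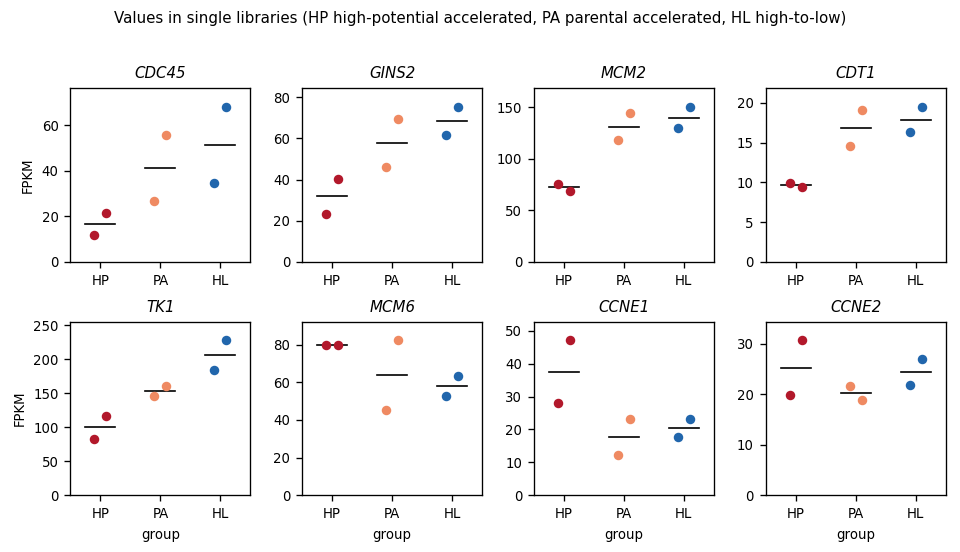
FPKM (vertical axis, linear, from 0) of 8 genes in single libraries (points) with the group mean (line) for high-potential accelerated (HP), parental accelerated (PA) and high-to-low (HL) cells. In CDC45, GINS2, MCM2, CDT1 and TK1 both HP points lie below all others, and in CCNE1 both lie above. In CCNE2 the HP points overlap with those of PA and of HL.

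Other genes of the pathway, 50 symbols of which 49 were found and kept, were lower in 28 and higher in 21 cases in high-potential accelerated against high-to-low libraries (median -0.16). None passed (0 of 49, limma), while an unadjusted p under 0.05 was reached by 7 that were lower and 1 that was higher, against 10.8% and 7.57% of all genes. DUT, which removes dUTP, was 70.3 and 64.4 FPKM in the high-potential accelerated group, 96.8 and 98.5 FPKM in the parental accelerated group and 114 and 114 FPKM in the high-to-low group (log2 difference -0.75, SE 0.168, limma adjusted p = 0.1002). SAMHD1, which breaks down deoxynucleotides, was 18.1 and 15.5 FPKM in high-potential accelerated cells, 29.8 and 22 FPKM in parental accelerated cells and 30.3 and 37.3 FPKM in high-to-low cells (log2 difference -0.96, SE 0.229, limma adjusted p = 0.11), and the origin subunit ORC2 was the highest in the other direction, at 19.2 and 23.6 FPKM in high-potential accelerated and 11.7 and 13.6 FPKM in high-to-low libraries (log2 difference 0.71, SE 0.305, limma adjusted p = 0.286). Against parental accelerated libraries 25 were lower and 24 higher (median -0.04), and between parental accelerated and high-to-low libraries 31 were lower and 18 higher (median -0.06), with 0 passing in each.

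Genes of the G1/S switch (cyclins D, their kinases and inhibitors, retinoblastoma and E2F families), of which 24 of 27 were kept, showed no common direction, with 14 higher and 10 lower against high-to-low (median 0.07) and 0 passing by limma. At an unadjusted p under 0.05 there were 2 higher and 1 lower (7.57 and 10.8% of all genes). CDKN1C, the kinase inhibitor p57, was 5.26 and 7.22 FPKM (high-potential accelerated), 2.39 and 1.48 FPKM (parental accelerated) and 3.06 and 0.94 FPKM (high-to-low) (log2 difference 1.35, SE 0.402, limma adjusted p = 0.161). MYC, a growth-promoting transcription factor, was 68.5 and 46.9 FPKM in the high-potential accelerated group, 37.5 and 42.7 FPKM in the parental accelerated group and 34 and 30.5 FPKM in the high-to-low group (log2 difference 0.80, SE 0.233, limma adjusted p = 0.158), and both high-potential accelerated libraries were above all others in these genes. CDKN2A, which encodes p16, was 14.2 and 11.6 FPKM in high-potential accelerated cells, 9.74 and 28.3 FPKM in parental accelerated cells and 10.7 and 3.61 FPKM in high-to-low cells (0.91), and CCND3, cyclin D3, was 41.3 and 53.8 FPKM (high-potential accelerated), 53.2 and 62.1 FPKM (parental accelerated) and 64.2 and 109.6 FPKM (high-to-low) (log2 difference -0.82, SE 0.296, limma adjusted p = 0.224). Mitosis genes were lower in 26 of 30 cases against high-to-low (median -0.36) and in 26 of 30 against parental accelerated libraries (median -0.28), with 0 passing by limma. At an unadjusted p under 0.05 there was 1 lower against high-to-low (10.8% of all genes) and 0 against parental accelerated libraries (8.63%). In the housekeeping list 11 of 15 were lower against high-to-low (median -0.12), and 1 passed: HPRT1, the purine salvage enzyme, fell to 36.3 and 46.7 FPKM in high-potential accelerated libraries, against 96.6 and 119.7 FPKM in parental accelerated and 113 and 143 FPKM in high-to-low libraries (log2 difference -1.60, SE 0.23, limma adjusted p = 0.0477 against high-to-low). That call did not hold without either high-potential accelerated replicate, without either high-to-low replicate or without parental accelerated replicate 2, where the limma adjusted p was 0.0528 to 0.307.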

How the data were processed

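RNA of 6 HEC-1B libraries was sequenced after SMART-Seq v4 amplification and Nextera library preparation, per the labels' protocols; these kits do not record strand. The authors deposited FPKM per gene symbol, with TopHat2 2.0.13, Cuffnorm 2.2.1 and hg19 named per the submitters' processing notes. Their scaling between libraries is not given in the sources used here.

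Log2(FPKM + 1) values were modelled in limma 3.58.1 (R 4.3.3), letting the variance follow the mean, on a scale that understates changes of low genes, over all 6 libraries (3 residual degrees of freedom) and 12135 genes. Calls used a Benjamini-Hochberg adjusted p under 0.05 over all genes, two-sided, in 4 comparisons. The fit was tested on simulated data, with changed genes drawn from all those kept and noise drawn for each gene apart. No shift shared by the genes of a library was put in, so the shares need not hold for the members. For high-potential accelerated against high-to-low libraries, the fit called 24.5% of the genes given a log2 change of 1. It called 83.3% at a log2 change of 2 and 93.9% at 4. Relative depth came from genes under 0.3 FPKM, whose ratios recurred within 3%; absolute depth is unknown, so no counting interval is given.

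The members and lists were chosen with earlier results of these data known. Per-library values are given for members called and, per function, for the one with the greatest difference in each pairwise comparison; in 2 other lists, for up to 4 with the greatest. Some genes that this rule covers are not reported here. Other members given per library, CDT1 and GINS2 among them, were added after their values were seen. Reads of 8 members (CCNE2, CHAF1A, GINS2, MCM7, ORC1, PRIM2, RFC5 and TYMS) may mix with an overlapping gene above 1 FPKM in every library. Alternatives changed the pseudocount, filter, scaling, variance model, libraries fitted and replicate or code terms, and left out each replicate. Shares of all genes at an unadjusted p under 0.05 were computed for the main fit only.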

Additional observations from a re-analysis of the deposited data

How the results depend on the processing

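The number of replication genes called was 0 under every alternative but 1, in all 4 comparisons, except that the fit on only the libraries compared was made for the 3 pairwise ones. With a replicate block (the number in the titles as a term), 4 were called between high-potential accelerated and high-to-low libraries (CDC45, TK1, GINS2 and MCM2, all lower; limma adjusted p 0.0117 to 0.0286) and 4 between high-potential and parental accelerated libraries (CDC45, MCM2 and GINS2 lower, CCNE1 higher; 0.0206 to 0.0493). The counts over all genes then were 944 (7.78%) and 546 (4.5%), against 97 (0.799%) and 60 (0.494%) without the term. The 4 of 44 members called in each comparison stand beside these shares and were not tested against them. With the block, 22 and 8 members of these comparisons had an unadjusted p under 0.05. There were 4 for parental accelerated against high-to-low and 15 for both accelerated groups against high-to-low. Without the block the counts were, in this order, 5, 6, 0 and 4. The share of all genes at that p was not computed with the block, so its counts have no background beside them. No label says that the number pairs libraries, and with 2 numbers the pairing cannot be settled from the data: across 12135 genes the replicate 2 minus replicate 1 differences correlated at r = 0.187 (high-potential with parental accelerated), 0.158 (high-potential accelerated with high-to-low) and 0.281 (parental accelerated with high-to-low), and across the 44 members at 0.414, 0.518 and 0.554. With 1 replicate left out, the count of called members stayed 0 in all comparisons, and the median ran from -0.50 to -0.14 for high-potential accelerated against high-to-low, -0.32 to 0.04 for high-potential against parental accelerated, -0.39 to 0.04 for parental accelerated against high-to-low and -0.49 to -0.08 for both accelerated groups against high-to-low. The medians of 2 comparisons thus changed sign. Where 1 library was left, it was assumed to vary like the other groups. The smallest adjusted p of a member against high-to-low (0.0882, MCM2) lay between 0.0682 and 0.393 over the alternatives other than the block.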

Other observations

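Ratios of 2 members within a library, chosen after their values were seen, are free of the scaling between libraries. The ratio of TK1 to RRM2 was 1.79 and 1.41 (high-potential accelerated), 3.46 and 2.99 (parental accelerated) and 3.67 and 2.8 (high-to-low). CDC45 to GINS1 was 0.48 and 0.609 (high-potential accelerated), 1.04 and 2.2 (parental accelerated) and 1.27 and 1.92 (high-to-low). GINS2 to GINS1 was 0.943 and 1.13 (high-potential accelerated), 1.8 and 2.73 (parental accelerated) and 2.27 and 2.12 (high-to-low). In these 3 ratios both high-potential accelerated libraries lay below all others. The ratio of CCNE1 to CCNE2 was 1.42 and 1.54 (high-potential accelerated), 0.563 and 1.23 (parental accelerated) and 0.815 and 0.865 (high-to-low), with both high-potential accelerated libraries above all others. RRM1 to RRM2, the subunits of ribonucleotide reductase, was 1.88 and 1.37 (high-potential accelerated), 2.11 and 2.54 (parental accelerated) and 2.01 and 1.79 (high-to-low), where high-potential accelerated and high-to-low libraries overlapped. These are values of single libraries, with no test.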
